A study of Brachypodium distachyon with 6 samples.

Results

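The genes described here are 36 loci of the grass Brachypodium distachyon whose messenger RNA was near silent in roots fed ammonium and readily counted in roots fed nitrate. They were chosen by their measured values. Levels are in CPM, the reads of a locus per 1000000 counted reads of its library. A locus was taken when its mean was below 2 CPM over the ammonium libraries and 8 CPM or more over the nitrate libraries. Of the 29435 features with a BRADI locus identifier, among 29627 features in all, 38 met both thresholds. The rule leaves out a run of neighbouring loci and a further pair of loci, all of chromosome 3, and 2 of the 38 belonged to that run, which left the 36 members (0.122% of the BRADI features).

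The study set roots of the inbred line Bd21 on ammonium against roots on nitrate, with 3 libraries of poly-A RNA from whole roots for each. Each library came from 12 pooled seedlings, moved at 7 days of age to hydroponic tanks of 4.5 L and grown for 19 days. Ammonium plants received 1.25 mM (NH4)2SO4 and nitrate plants 1.25 mM Ca(NO3)2, both giving 2.5 mM nitrogen, so sulfate and calcium differ along with the nitrogen form and their parts cannot be told apart. No group without nitrogen is among the samples. A locus that is on with nitrate here may thus be raised by nitrate or lowered by ammonium. In whole roots, fewer cells of a type and less RNA per cell cannot be told apart either.

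Plant roots take up nitrate through dedicated transporters and reduce it to nitrite and then to ammonium before it enters amino acids, whereas ammonium is assimilated directly. Nitrate is also a signal in its own right. In plants it is known to switch on genes for its transport and reduction, for the reducing power this needs, and for regulators of root growth. Many of these genes are turned down when ammonium is plentiful. None of the table's identifiers (0 of 29627) could be matched to the RefSeq gene table, so the 36 members carry locus identifiers only, with no product name, sequence or role. For the same reason the root label was not checked against marker genes.

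Library totals ran from 22470936 to 29547877 counts. Ammonium replicate 3 held more of the members' reads than the other ammonium libraries, as described below. Some values that rest on it are given with and without it, and the others include it. Whether each pool had a tank of its own is not stated in the labels, so the spread between replicates may be partly technical. If the pools of a treatment shared a tank, they were not independent, and tank and treatment cannot be told apart. The SDs, SEs and adjusted p values given here would then understate the uncertainty.

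**Figure D1:**
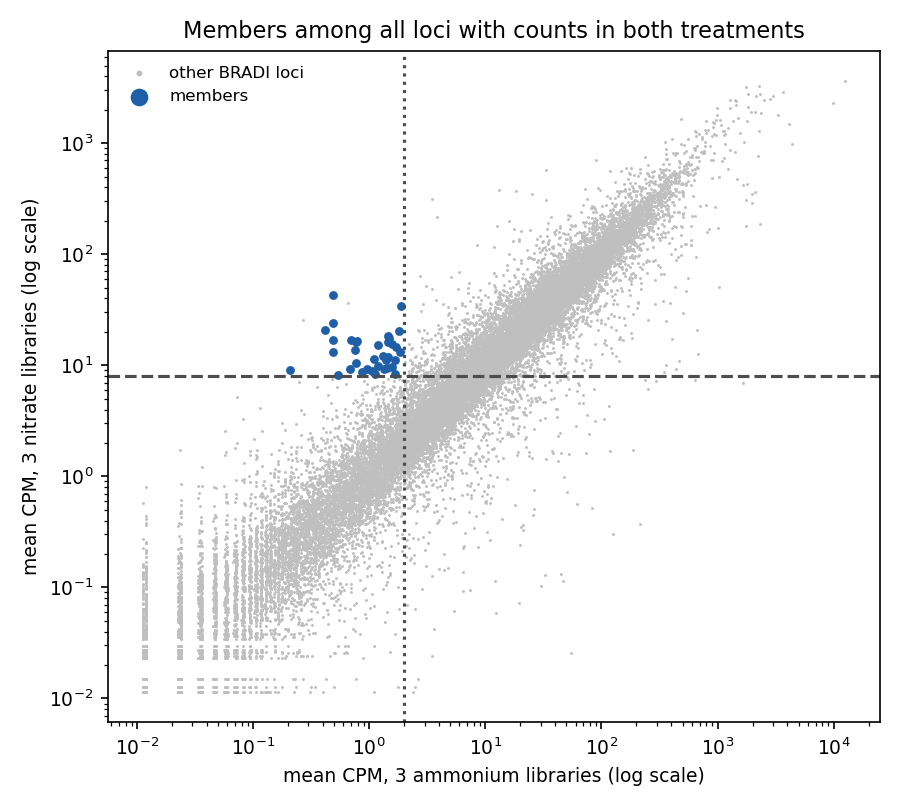
Each point is a BRADI locus with counts in both treatments, at its mean CPM over the 3 ammonium libraries (horizontal, log scale) and over the 3 nitrate libraries (vertical, log scale). The 36 members (blue) lie left of the dotted line at 2 CPM and above the dashed line at 8 CPM, and the 1661 BRADI loci with no counts in 1 treatment are not drawn.

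As a set, the members took up 540, 576 and 452 CPM in nitrate replicates 1 to 3 and 30.02, 34.7 and 55.7 CPM in ammonium replicates 1 to 3. All 3 nitrate sums lay far above all 3 ammonium sums, and nitrate replicate 3 was the lowest of its group and ammonium replicate 3 the highest of its own. The means were 523 ± 63.9 CPM and 40.1 ± 13.6 CPM (SD, n = 3 each), a 13.02-fold difference, or 16.1-fold without ammonium replicate 3. These sums rest on many loci: the 3 members with the most reads made up 18.7% to 21.4% of the nitrate sums. All 36 members passed the abundance filter and were lower under ammonium at an adjusted p under 0.05 in the edgeR quasi-likelihood test, as were 22.2% of the 23694 tested features. The nitrate and ammonium libraries did not overlap for any of the 36, a separation found for 27.1% of tested features with nitrate above. Because the same values chose the members, nothing is read from either count.

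Near silent does not mean absent. The members held between 18 and 158 ammonium counts in total, with a median of 98.5, and only 1 of their 108 ammonium values was 0. Their mean ammonium level was 1.14% to 19.9% of their mean nitrate level, with a median of 8.97%. It was under 5% for 9 members and under 10% for 21. The nitrate over ammonium ratio of mean CPM ran from 5.03 to 87.7, with a median of 11.1. Leaving out ammonium replicate 3 moved this ratio by more than 1.5 times for 7 members and its median to 14.8. CPM values take no account of transcript length, so the order of members by CPM is an order of reads and not of transcripts.

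**Figure D2:**
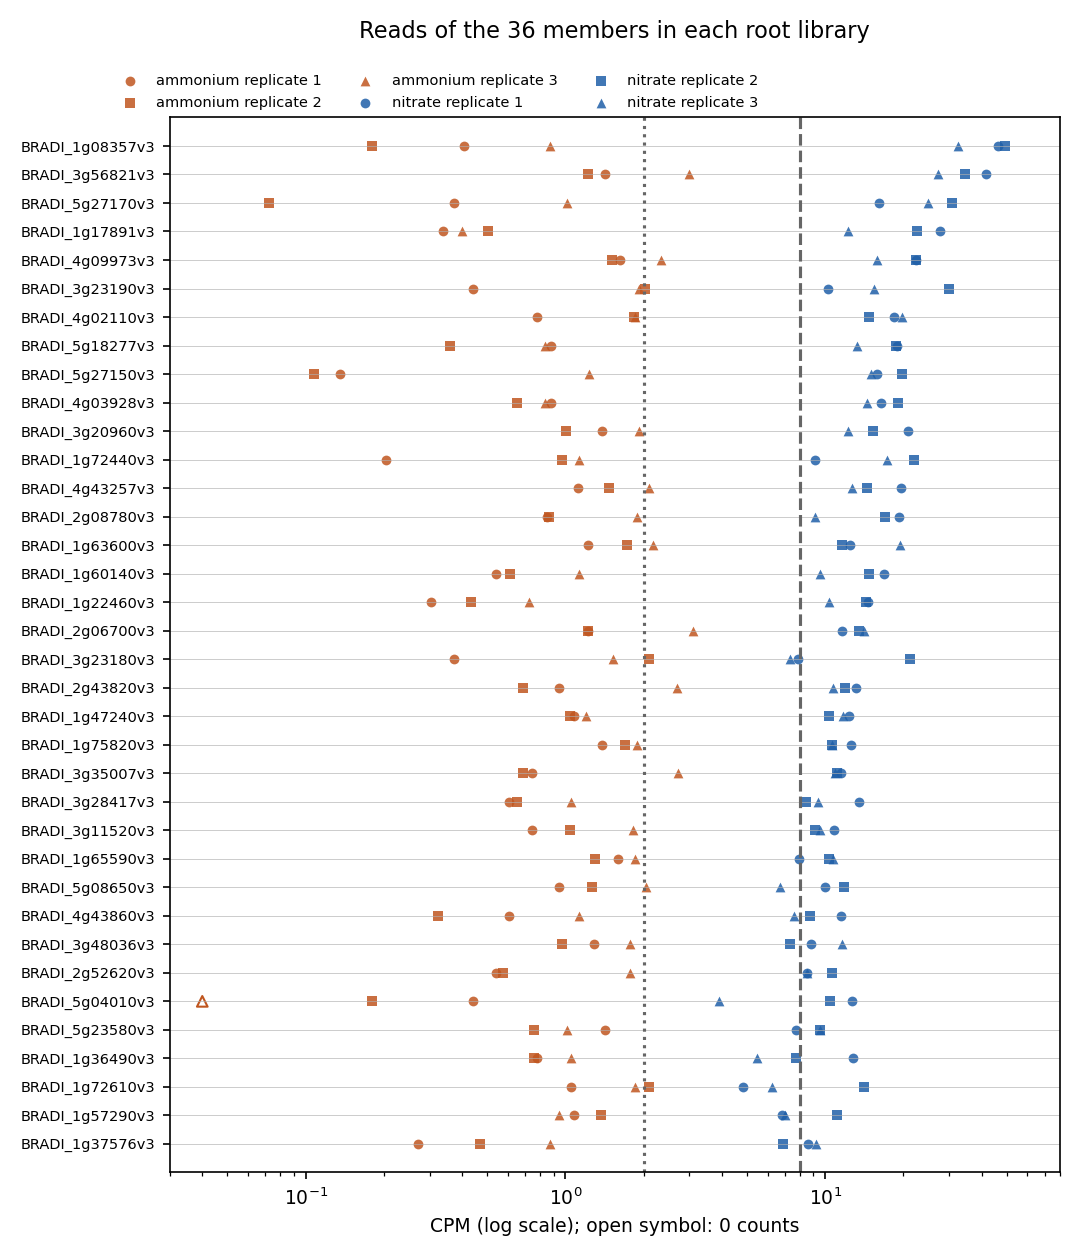
CPM (log scale) of each of the 36 members in the 3 ammonium (orange) and 3 nitrate (blue) libraries, with replicates 1, 2 and 3 as circles, squares and triangles, ordered by mean nitrate CPM. The dotted and dashed lines mark the thresholds of 2 and 8 CPM, and the open triangle marks 0 counts of BRADI_5g04010v3 in ammonium replicate 3.

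BRADI_1g08357v3 took the most nitrate reads and showed the widest ratio. It stood at 46.4, 49.1 and 32.4 CPM in nitrate replicates 1 to 3 and at 0.406, 0.180 and 0.872 CPM in ammonium replicates 1 to 3. Its lowest nitrate library was thus 37.2 times its highest ammonium library. The ratio of means was 87.7, and its summed counts gave a ratio of 89.5 (exact 95% interval 65.9 to 125, counting error only). Without ammonium replicate 3, which held 24 of its 41 ammonium counts, the ratio of means was 145.

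BRADI_1g17891v3 came next in ratio, at 50.3. Its ammonium values were close together, at 0.338, 0.505 and 0.400 CPM, and did not peak in replicate 3. Its nitrate values were 27.6, 22.7 and 12.2 CPM, so that nitrate replicate 3 stood well below the other two. Leaving out any 1 library kept the ratio between 42.1 and 60.7.

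BRADI_5g04010v3 was the only member with an ammonium library at 0. Its ammonium values were 0.440, 0.180 and 0 CPM, where a count of 0 allows up to 0.109 CPM in that library. In nitrate it stood at 12.6, 10.4 and 3.92 CPM. The libraries numbered 3 were thus the lowest of both treatments, against the direction of most members under ammonium. Its ratio of 43.5 rests on few ammonium counts (18 in total, exact 95% interval of the count ratio 27.8 to 74.98), and it was 99.8 without ammonium replicate 1 and 29.0 without ammonium replicate 3.

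Of the members with the most nitrate reads, BRADI_3g56821v3 was the one nearest to the ammonium threshold. It held 1.42, 1.22 and 2.98 CPM in ammonium roots and 41.7, 34.5 and 27.1 CPM in nitrate roots, a ratio of 18.4. Its ammonium replicate 3 value alone lay above 2 CPM. BRADI_4g09973v3 behaved alike at a lower nitrate level, with 1.62, 1.51 and 2.33 CPM against 22.4, 22.4 and 15.8 CPM.

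BRADI_5g18277v3 and BRADI_4g03928v3 did not have their highest ammonium value in replicate 3. The ammonium values of BRADI_5g18277v3 were 0.880, 0.360 and 0.836 CPM and its nitrate values 18.9, 18.7 and 13.3 CPM. For BRADI_4g03928v3 they were 0.880, 0.649 and 0.836 CPM, and 16.4, 19.0 and 14.5 CPM. Their ratios, 24.5 and 21.1, were among the 9 above 20. Both BRADI_5g18277v3 and BRADI_4g02110v3 had 1 low ammonium library, replicate 2 for the former and replicate 1 for the latter. BRADI_4g02110v3 held 0.778, 1.84 and 1.85 CPM in ammonium roots, against 18.5, 14.7 and 19.8 CPM in nitrate roots.

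The thresholds cut through a continuous range of values. Just inside the ammonium threshold lay BRADI_3g56821v3, BRADI_2g06700v3 and BRADI_4g09973v3, with means of 1.88, 1.84 and 1.82 CPM. Just outside it lay BRADI_1g20185v3, BRADI_3g50420v3 and BRADI_1g47850v3, with 2.01, 2.04 and 2.20 CPM under ammonium and 13.4, 10.7 and 8.37 CPM under nitrate. Loci on either side of this threshold thus differed by little. On the nitrate side, BRADI_1g37576v3, BRADI_1g57290v3 and BRADI_1g72610v3 lay just inside, with means of 8.22, 8.32 and 8.36 CPM. BRADI_5g24065v3, BRADI_1g64500v3 and BRADI_1g28410v3 lay just outside, with 7.54, 7.48 and 7.47 CPM. When both thresholds had to be met in every library, 17 of the 36 remained.

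The order of the replicates within a treatment was not used by the rule, which took only means. Among ammonium libraries, 27 of the 36 members (75%) had their highest value in replicate 3, 5 in replicate 2 and 4 in replicate 1. Over all tested features the share highest in ammonium replicate 3 was 39.2%. It was 35.8% of the 4721 other BRADI features in the members' range of ammonium CPM, and 55.1% of the 372 other features called lower under ammonium by more than 4-fold. The share was thus higher among the members than among features of like ammonium level, and the strongly lower features as a class lay between. These differences in share were not tested. With the reverse thresholds (nitrate mean below 2 CPM, ammonium mean 8 CPM or more), 81 loci were found. Of these, 72 (88.9%) had their lowest ammonium value in replicate 3, beside 37.4% of all tested features. This difference was not tested either.

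**Figure D3:**
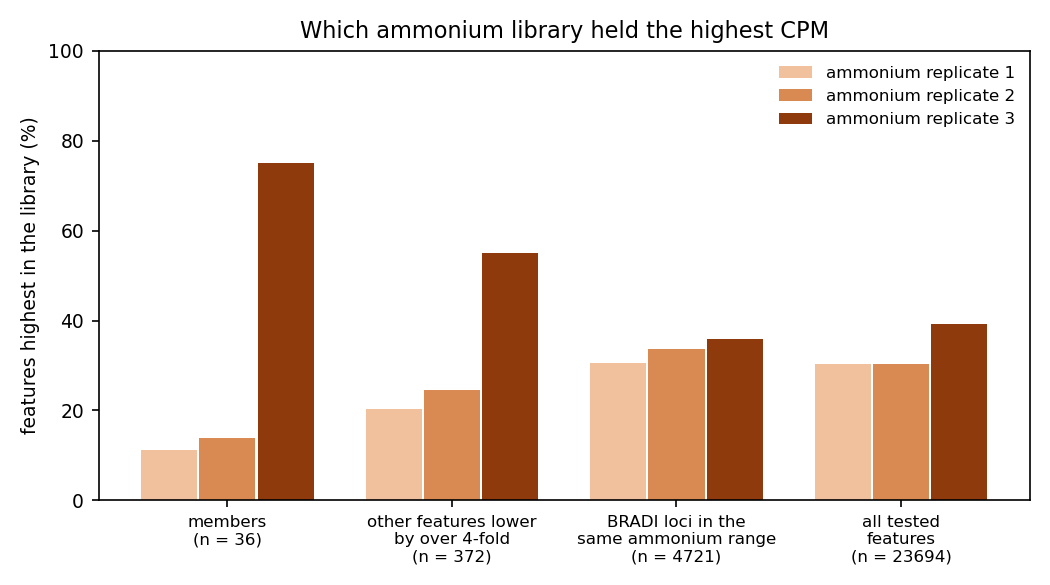
Share of features (%, vertical axis) whose highest ammonium CPM fell in replicate 1, 2 or 3, for the members, for other features called lower by more than 4-fold, for other BRADI loci in the same range of ammonium CPM, and for all tested features. Replicate 3 held the highest value for 75% of members and 39.2% of all tested features.

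The size of the excess in ammonium replicate 3 varied between members. Its value was over 2 times the mean of replicates 1 and 2 for 12 of the 36, with a median ratio of 1.62 over all members. The most displaced, by their values, was BRADI_5g27150v3, at 0.135, 0.108 and 1.24 CPM, a 10.1-fold excess from 4, 3 and 34 counts. BRADI_3g35007v3, chosen here after its values were seen, combined 0.745, 0.685 and 2.73 CPM under ammonium with 11.5, 11.1 and 10.9 CPM under nitrate. Its nitrate libraries were the closest together of any member, with a coefficient of variation (SD as a percent of the mean) of 2.73%, while its ammonium libraries varied by 83.8%. Counts alone would give this locus about 5.87% under nitrate and 16.1% under ammonium. The nitrate value lies below that, so it is not read as a steady level. In ammonium replicate 3 the members were at 0% to 24.4% of their nitrate means, with a median of 11.5%. The ammonium mean used by the rule includes this library, so low values there follow in part from the choice of members. The 7 members whose ratio moved by more than 1.5 times without this library were BRADI_5g27150v3 (34.2 to 139), BRADI_5g27170v3 (49.1 to 108), BRADI_1g08357v3 (87.7 to 145), BRADI_3g35007v3 (8.07 to 15.6), BRADI_2g43820v3 (8.27 to 14.6), BRADI_2g52620v3 (9.52 to 16.5) and BRADI_2g06700v3 (7.09 to 10.7).

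Under nitrate the members' values were widely spread between pools. Their median coefficient of variation over the nitrate libraries was 21.3%, against 8.83% for all BRADI features in the same range of nitrate CPM, and 34 of the 36 lay above that second value. Reads alone would give the members about 5.53% (median, from their counts). Without nitrate replicate 3 the members' median was 13.8% and that of the other features 6.14%. Nitrate replicate 3 was the lowest nitrate library for 21 members, replicate 1 for 8 and replicate 2 for 7. Its share was thus 58.3% among the members, beside 33.9% of all tested features and 50.3% of the other features called lower by more than 4-fold, and the differences were not tested. Under ammonium the median was 41.8%, against 26.9% for BRADI features in the same range of ammonium CPM, where counts alone would give the members about 17.5%.

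The 3 members with the widest spread under nitrate shared a profile. BRADI_3g23180v3 stood at 7.83, 21.2 and 7.34 CPM in nitrate replicates 1 to 3 and at 0.372, 2.09 and 1.53 CPM in ammonium replicates 1 to 3. BRADI_3g23190v3, the next locus, stood at 10.2, 29.97 and 15.4 CPM and at 0.440, 2.02 and 1.93 CPM. For both, replicate 2 was the highest of each treatment and replicate 1 the lowest under ammonium. BRADI_1g72610v3 held 4.81, 14.1 and 6.23 CPM under nitrate and 1.05, 2.09 and 1.85 CPM under ammonium, so that replicate 2 was again the highest and replicate 1 the lowest in both treatments. The members next in spread did not share this profile. BRADI_5g04010v3 and BRADI_1g36490v3 (coefficients of variation 50.4% and 43.5%) were highest in nitrate replicate 1 and lowest in nitrate replicate 3.

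These 3 and BRADI_1g72440v3, singled out after its values were seen, were the only 4 members with nitrate replicate 2 over 2 times nitrate replicate 1. BRADI_1g72440v3 held 9.14, 21.97 and 17.3 CPM under nitrate and 0.203, 0.973 and 1.13 CPM under ammonium. In all 4, ammonium replicate 2 was also more than 1.5 times ammonium replicate 1, by 1.99 to 5.62 times. Of the other 32 members this held for 2. The ratio over ammonium changed by more than 1.5 times without nitrate replicate 2 for 2 of the 4, from 9.13 to 5.71 for BRADI_3g23180v3 and from 5.03 to 3.32 for BRADI_1g72610v3.

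Deviations from the treatment mean (log2 CPM with 2 counts added) were set side by side for libraries of the same number. Over the 36 members Pearson's r was 0.50 for the pair numbered 1, 0.35 for 2 and 0.36 for 3 (Spearman's rho 0.34, 0.13 and 0.18). Over all tested features r was 0.13, 0.21 and 0.11 (rho 0.07, 0.20 and 0.09). The points of each value share 2 libraries, and deviations within a treatment add up to 0, so these are descriptions. Between libraries of different numbers r ran from -0.29 to -0.06 over the 36 members. Without the 4 members just named, r over the other 32 was 0.16, -0.23 and 0.35 for the same numbers. Over these 32, ammonium replicate 1 with nitrate replicate 2 gave 0.34, as did ammonium replicate 2 with nitrate replicate 1, both above the same-number values for 1 and 2. The same-number values for 1 and 2 were thus lower without those 4 loci. The 4 were picked by nitrate replicates 1 and 2, which enter these values, so part of the drop follows from that choice.

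**Figure D4:**
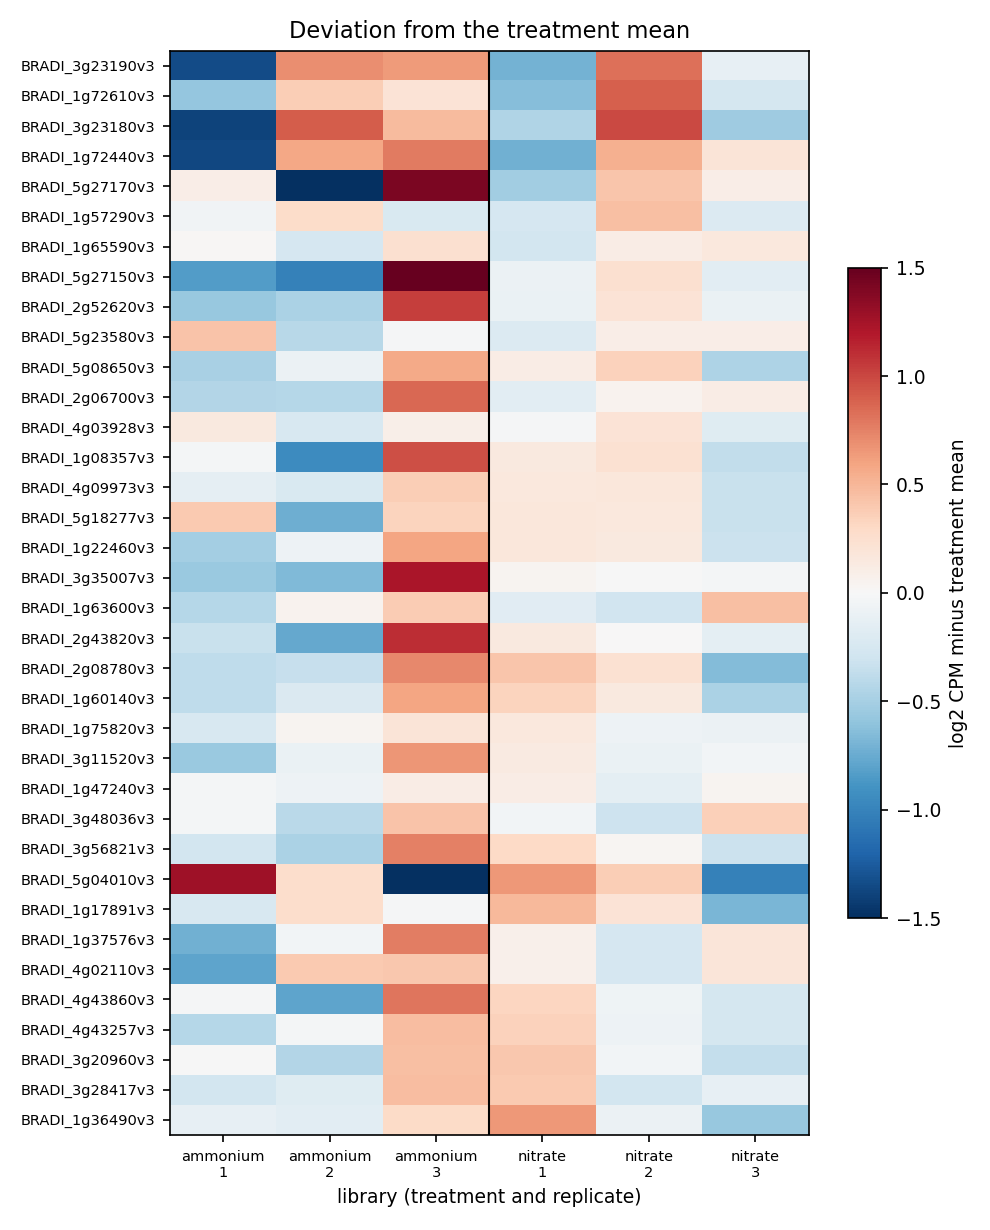
Deviation of each member (rows, ordered by the difference between nitrate replicates 2 and 1) from its treatment mean in log2 CPM, for the 3 ammonium and 3 nitrate libraries (columns), with colours ending at -1.5 and 1.5. The 4 top rows are low in replicate 1 and high in replicate 2 of both treatments, and most other rows are high in ammonium replicate 3.

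The members lay on all 5 chromosomes, read from the digit after the BRADI prefix by the naming convention of this species. There were 13 on chromosome 1, 4 on chromosome 2, 8 on chromosome 3, 5 on chromosome 4 and 6 on chromosome 5. The shares were 36.1%, 11.1%, 22.2%, 13.9% and 16.7%, beside 30.1%, 22.8%, 22.9%, 15.1% and 9.06% of all ordered BRADI loci at 8 CPM or more under nitrate. With so few members, and some loci of chromosome 3 left out by the rule, no chromosome is called different. Locus numbers that are not multiples of 10, which the convention uses for loci placed between those numbered first, belonged to 11 members (30.6%), beside 25.4% of BRADI loci in the same range of nitrate CPM and 39.6% of all ordered BRADI loci. The members' share lay between these values, and no difference was tested.

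Many loci beside the members were also lower under ammonium, although the rule did not choose them. The direct neighbours of the members in locus order, members left out, were 69 loci, of which 59 passed the abundance filter. Of these, 23 (39.0%) were lower under ammonium, 4 (6.78%) were higher and 32 did not pass the edgeR test at an adjusted p under 0.05. Over all tested features 22.2% were lower and 19.2% were higher, and the difference in share was not tested. A fall of more than 2-fold was found for 14 of the 59 (23.7%), against 7.55% of all tested features, and one of more than 4-fold for 7 (11.9%), against 1.72%. The neighbours called lower lay beside 22 of the 36 members. The like share for other loci was not computed, so nothing is read from this count.

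Beside other loci with nitrate reads, the shares were near those over all tested features. Among 17415 tested loci next to any other BRADI feature at 8 CPM or more under nitrate, 22.3% were lower and 19.0% higher. At 2 or 3 places from a member, 33 of 107 tested loci (30.8%) were lower and 15 (14.0%) higher. The median log2 fold change of the 59 direct neighbours was -0.11, beside 0.00369 over all tested features. Leaving out 1 library gave 17 to 24 lower neighbours. The number of higher ones fell to 0 without ammonium replicate 1 or 2 and to 1 without nitrate replicate 1 or 2, and was 4 or 5 without a library numbered 3. Neighbouring loci can share sequence or overlap, and the labels do not state how reads in such places were counted, so the part of shared reads was not tested.

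The neighbour with the largest fall lay on chromosome 5. The members BRADI_5g27150v3 and BRADI_5g27170v3 flank BRADI_5g27160v3, which missed the rule only by its ammonium level and was chosen here after its values were seen. This middle locus held 330, 445 and 347 CPM in nitrate replicates 1 to 3 and 14.9, 11.6 and 28.2 CPM in ammonium replicates 1 to 3. It fell 20.5-fold (log2 fold change -4.37, SE 0.32, edgeR adjusted p = 2.6e-05), and ammonium replicate 3 was again the highest of its group. BRADI_5g27150v3 held 15.8, 19.8 and 15.0 CPM in nitrate roots, and its ammonium values are given above. BRADI_5g27170v3 held 16.1, 30.8 and 24.8 CPM in nitrate roots and 0.372, 0.0721 and 1.02 CPM in ammonium roots. No library of one treatment overlapped the other for any of the 3 loci, a separation found for 27.1% of all tested features with nitrate above. The members were chosen by these values and the middle locus was picked after they were seen, so nothing is read from this.

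The members of this run did not hold a steady share of the counts of the middle locus, but their ammonium shares rest on few counts. The counts of BRADI_5g27150v3 were 4.79%, 4.46% and 4.32% of those of BRADI_5g27160v3 in nitrate replicates 1 to 3, but 0.907%, 0.932% and 4.39% in ammonium replicates 1 to 3. Those of BRADI_5g27170v3 were 4.88%, 6.93% and 7.16% under nitrate and 2.49%, 0.621% and 3.61% under ammonium. The ammonium counts behind these shares were 4, 3 and 34 for BRADI_5g27150v3 and 11, 2 and 28 for BRADI_5g27170v3. Both loci were also chosen for a low ammonium mean. On the far side, BRADI_5g27140v3 was at 0.731 CPM under nitrate and 1.08 CPM under ammonium and was not called (edgeR adjusted p = 0.22). The locus beyond it, BRADI_5g27130v3, was slightly lower under ammonium (290.2 against 372 CPM, log2 fold change -0.37, SE 0.09, edgeR adjusted p = 0.0099).

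On the other side, lower loci went on past the members, and those named here were chosen after their values were seen. BRADI_5g27210v3 held 353, 378 and 323 CPM in nitrate replicates 1 to 3 and 17.9, 20.1 and 37.1 CPM in ammonium replicates 1 to 3 (log2 fold change -3.83, SE 0.26, edgeR adjusted p = 2.2e-05). Its ammonium replicate 3 was the highest of its group, as for the loci described above. BRADI_5g27190v3, at a low level, was at 0.720 CPM under ammonium and 2.74 CPM under nitrate (log2 fold change -1.95, SE 0.37, edgeR adjusted p = 0.0031). The loci between, BRADI_5g27180v3 and BRADI_5g27200v3, had too few counts to be tested.

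Lower loci also lay around BRADI_1g47240v3, a member chosen here after its values were seen, which held 12.4, 10.3 and 11.7 CPM under nitrate and 1.08, 1.05 and 1.20 CPM under ammonium. Its ammonium libraries were the closest together of any member, with a coefficient of variation of 7.22%. They held 32, 29 and 33 counts, which alone would give about 17.9%, so this closeness is not read as a steady level. The locus after it, BRADI_1g47250v3, held 122, 117 and 123 CPM under nitrate and 8.83, 8.90 and 7.56 CPM under ammonium (log2 fold change -3.85, SE 0.09, edgeR adjusted p = 2.7e-07). The locus before it, BRADI_1g47232v3, was also lower under ammonium, at 4.82 ± 1.06 CPM against 22.6 ± 1.93 CPM (SD, n = 3 each; log2 fold change -2.25, SE 0.16, edgeR adjusted p = 2.5e-05). Farther out on that side, BRADI_1g47226v3 and BRADI_1g47220v3 were also lower (log2 fold changes -2.06 and -1.87, edgeR adjusted p = 5.2e-05 and 0.00022). Past BRADI_1g47250v3, BRADI_1g47261v3 was slightly higher under ammonium (log2 fold change 0.53, edgeR adjusted p = 0.042). The loci after it, BRADI_1g47270v3 and BRADI_1g47277v3, were not called (edgeR adjusted p = 0.57 and 0.92). These farther loci were named after their values were seen. Here the member was a steadier share of its larger neighbour: 10.1%, 8.82% and 9.55% of the counts of BRADI_1g47250v3 under nitrate and 12.3%, 11.7% and 15.9% under ammonium. For BRADI_1g57290v3 beside BRADI_1g57285v3 the shares were 5.83% to 6.72% under nitrate and 4.84% to 7.88% under ammonium. The naming rules did not cover this neighbour. The ammonium shares rest on 32, 38 and 26 counts of the member. Between ammonium replicates 1 to 3 the neighbour fell, at 22.4, 17.4 and 12.1 CPM, while the member held 1.08, 1.37 and 0.945 CPM. Reads shared between such loci were not tested.

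**Figure D5:**
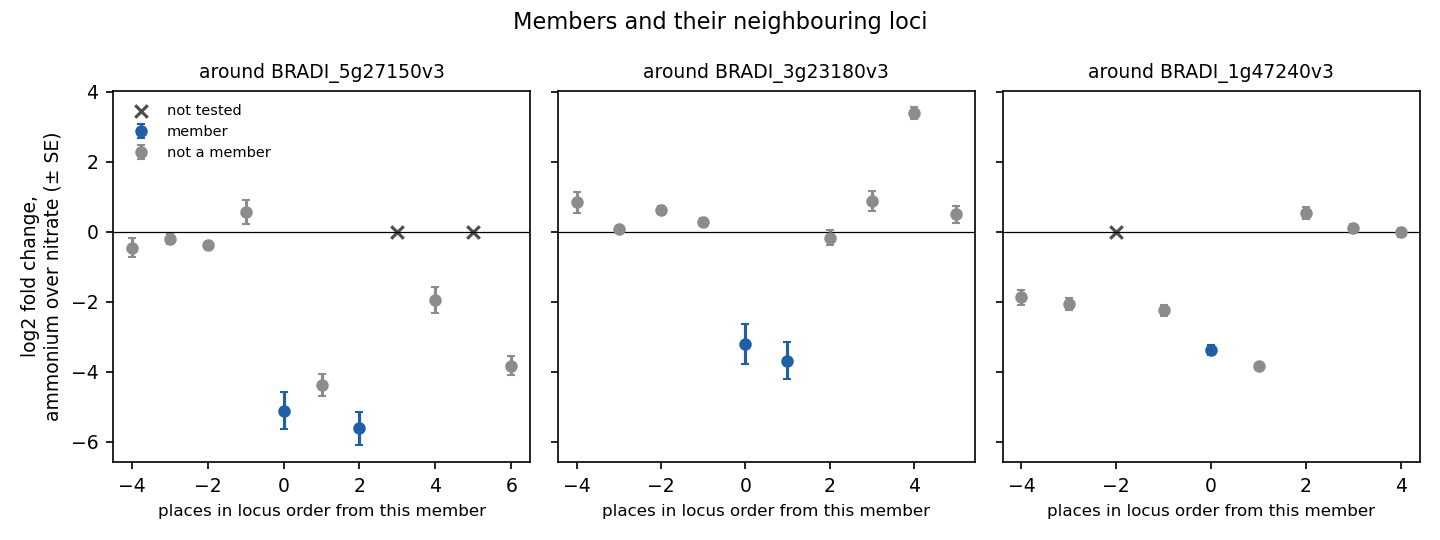
Log2 fold change, ammonium over nitrate, with its SE (vertical bars), against the place in locus order counted from BRADI_5g27150v3, BRADI_3g23180v3 and BRADI_1g47240v3. Members are blue, other tested loci grey, and crosses at 0 mark loci that were not tested; low values extend beyond the members on chromosomes 5 and 1 but not around BRADI_3g23180v3.

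No tested locus in the window drawn around the pair BRADI_3g23180v3 and BRADI_3g23190v3 was called lower besides the pair itself, and several were higher under ammonium. The locus before the pair, BRADI_3g23167v3, was slightly higher under ammonium (45.2 against 36.6 CPM, log2 fold change 0.29, SE 0.09, edgeR adjusted p = 0.031). The locus after it, BRADI_3g23195v3, was not called, at 1.57 CPM under ammonium and 1.76 CPM under nitrate (edgeR adjusted p = 0.54). Farther out, BRADI_3g23210v3, named after its values were seen, changed the opposite way to the members, with 7.93 CPM under ammonium and 0.758 CPM under nitrate (log2 fold change 3.38, SE 0.17, edgeR adjusted p = 6.8e-06). BRADI_3g23160v3 and BRADI_3g23200v3 were also higher under ammonium, by log2 fold changes of 0.62 and 0.87 (edgeR adjusted p = 0.0018 and 0.039). This pair and the chromosome 5 loci were the only members within 5 places of another member. BRADI_1g72440v3 and BRADI_1g72610v3, in which, as in the pair, replicate 2 stood well above replicate 1 in both treatments, lie 18 places apart. Unlike the pair, BRADI_1g72440v3 was highest in replicate 3 under ammonium.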

How the data were processed

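The submitters' processing notes name HISAT2 and HTSeq as the tools. Versions, genome build, annotation, strand setting and the handling of multiply aligned reads are not given in the sources. The authors deposited raw counts per feature, whole numbers for 6 libraries, and every column was matched to a sample by its label. Replicates of a treatment differed by more than counting noise (chi-square per degree of freedom at least 6.88).

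CPM values were computed here from the deposited counts and library totals. Counts were tested over all features with the edgeR 4.0.16 quasi-likelihood test in R 4.3.3 (filterByExpr with minimum count 10 and total 15, TMM scaling, treatment as the only term, Benjamini-Hochberg adjustment). The SE of a log2 fold change is its size divided by the square root of F. The test was checked on simulated counts. DESeq2 1.42.0 was an alternative. Exact intervals and limits for a count of 0 (3 counts) cover counting error only.

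Libraries with the same replicate number deviated together only weakly over all tested features (Pearson's r = 0.13, 0.21 and 0.11, Spearman's rho 0.07, 0.20 and 0.09). A fit with the number as a block was therefore run as an alternative. The pairing is read from the data, since the labels give only the numbers. The members, lists and tests were chosen with earlier results of these data known. Members named in full are the 10 with the most nitrate reads, the 5 with the highest ratio, those within 5 places of another member, the 3 nearest each threshold on either side and the 3 that vary most under nitrate. Lists based on product names were not applied, since no identifier could be matched. No sequences are shown for the same reason.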

Additional observations from a re-analysis of the deposited data

How the results depend on the processing

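The 36 members were the same 36 with TMM-scaled or RLE-scaled library sizes. Stricter thresholds left subsets by construction: 15 members with an ammonium mean below 1 CPM (summed means 236 CPM under nitrate and 9.41 under ammonium), 12 with a nitrate mean of 16 CPM or more (261 and 12.2 CPM), 3 of them on chromosome 1, and 17 when every library had to meet both (282 and 15.2 CPM). Leaving out 1 library gave 33 to 44 members, with 44 without ammonium replicate 3, a summed nitrate mean of 476 to 602 CPM and a summed ammonium mean of 36.01 to 47.9 CPM. Over the original 36 members, the ammonium mean without replicate 3 was 32.4 CPM, a value added after the data were seen.

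The number of features called lower was 5256 and stayed between 3993 and 5429 without 1 library, and at 5001 with DESeq2. The number of neighbours called lower was 23, against 21 with DESeq2 and 17 to 24 without 1 library. Up to 3 places on each side, 56 of 166 tested loci were lower. Without the loci around BRADI_5g27150v3, BRADI_5g27170v3 and BRADI_1g47240v3, an alternative added after the data were seen, 20 of 55 were lower. With the replicate block, 5634 features and 22 neighbours were lower, both within 1.5 times of the values without it. The members' median coefficient of variation under nitrate was 22.5% with TMM-scaled library sizes and 13.8% to 24.3% without 1 library. Depth limits the ammonium values, since the members held 18 to 158 ammonium counts in total, but their median coefficient of variation there (41.8%) was above the 17.5% that counts alone would give.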
